A study of Sus scrofa with 12 samples.

Results

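The genes described here belong to the antioxidant response controlled by the transcription factor NRF2. They were chosen by name: NFE2L2, which encodes NRF2 itself, its targets HMOX1, NQO1, GCLM, GCLC, TXNRD1, SRXN1, SLC7A11 and OSGIN1, and TXNIP, the inhibitor of thioredoxin. Of these 10 genes, 9 could be matched by gene identifier to a row of the count table, which holds 21153 genes. HMOX1, heme oxygenase 1, was not matched and was not analysed here. All 9 genes were well counted, with between 490 and 31116 reads per gene and library, and all 9 passed the filter on low values in every comparison.

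NRF2 protein is normally bound by KEAP1, which delivers it to a CUL3 ubiquitin ligase for degradation. When oxidants or electrophiles modify KEAP1, NRF2 escapes, enters the nucleus, pairs with small MAF proteins and binds antioxidant response elements, which BACH1 occupies in unstressed cells. Its targets make glutathione, reduce thioredoxin and quinones, and supply NADPH, and in endothelial cells (ECs) steady laminar flow is known to engage this response. Because NRF2 is controlled mainly through its protein, the mRNA of NFE2L2 does not report its activity, and only mRNA was measured here.

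RNA was sequenced from primary arterial ECs of 8-month-old pigs after 48 h of laminar flow. The shear stress was low (2 dyne/cm2), physiological (30 dyne/cm2) or supra-high (80 dyne/cm2). No genetic change or drug was applied, and all cells were grown on gelatin with fetal calf serum and heparin. Each condition has 3 libraries with replicate numbers 1 to 3, and the source labels give all libraries of a number the same cell isolate, so each replicate is 1 donor. The physiological condition was cultured in duplicate, as set 1 and set 2, which gives 12 libraries in 4 groups. Low shear stress was compared with set 1 and supra-high shear stress with set 2, although the sample labels do not state which set belongs to which condition, and values against the other set are given where they matter. The deposited description calls the cells aortic and has the supra-high cultures and their controls in another type of flow slide than the low cultures and theirs, with a higher seeding density at 80 than at 2 dyne/cm2, whereas the methods name coronary arteries and a single slide. The methods state 1 donor and 1 cell passage within each comparison, and the results describe these 3 isolates.

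Between 29606854 and 41058902 reads were counted per library, and levels are given as CPM, the count of a gene scaled to the TMM-adjusted size of its library, with the 12 libraries scaled together. The ECs held their defining markers: all 9 endothelial markers that could be matched were above 7 CPM in every library, with PECAM1 at 1592 CPM or more and CDH5 at 1325 CPM or more. Other markers varied widely between libraries: EMCN ranged from 7.23 to 242 CPM, KDR from 12.05 to 164.5 CPM and TEK from 44.2 to 600 CPM. VWF, CLDN5 and EGFL7 were not matched. Of 7 smooth muscle markers DES was at 0 counts in all libraries and MYH11, CNN1 and ACTG2 stayed under 1 CPM, while MYOCD and LMOD1 reached 5.32 and 5.16 CPM and SMTN lay between 44.1 and 83.2 CPM. Their sum was 70.6 to 87.7 CPM at 2 dyne/cm2, 59.7 to 86.5 CPM in set 1, 58.4 to 75.6 CPM in set 2 and 49.6 to 73.5 CPM at 80 dyne/cm2. Of 7 leukocyte markers PTPRC had at most 2 counts and CD3E at most 1, while CD14 reached 5.11 CPM and CD68 21.7 CPM. Their sum was 8.30 to 11.6 CPM at 2 dyne/cm2, below the 15.4 to 22.9 CPM of set 1, and 14.3 to 28.8 CPM at 80 dyne/cm2, beside 13.3 to 24.3 CPM in set 2. The 7 fibroblast markers summed to 21.3 to 189.6 CPM at 2 dyne/cm2 and 22.3 to 90.1 CPM in set 1, and to 12.2 to 113 CPM at 80 dyne/cm2 and 19.4 to 220.7 CPM in set 2. Of the 4 fibroblast markers tested at 2 dyne/cm2, PDGFRA and COL1A2 were called higher, and in the difference between responses 3 of 4 were called lower at 80 dyne/cm2. Over all genes, 13.4% were called higher at 2 dyne/cm2 and 19.3% lower in that difference. The summed endothelial markers were lower at 2 dyne/cm2 (4905 to 5871 CPM) than in set 1 (6953 to 8055 CPM), and higher at 80 dyne/cm2 (8520 to 8731 CPM) than in set 2 (6606 to 7717 CPM), without overlap in either case. Of the 9 endothelial markers 4 were called lower and 1 higher at 2 dyne/cm2, beside 12.4% and 13.4% of all genes. At 80 dyne/cm2 2 were called higher and none lower, beside 4.36% of all genes called higher. The part of these marker differences in the results was not tested. Fibronectin (FN1) took more reads than any other gene in all libraries at 2 and 30 dyne/cm2, and vimentin (VIM) did at 80 dyne/cm2.

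At 2 vs. 30 dyne/cm2, 4 of the 7 measured NRF2 targets fell: NQO1, SLC7A11, GCLM and TXNRD1. None of the 9 genes rose. The fall was 2.51-fold for NQO1, 2.05-fold for SLC7A11, 1.61-fold for GCLM and 1.53-fold for TXNRD1 (edgeR quasi-likelihood test with donor as a term, adjusted p under 0.05 over all 11226 genes tested). The remaining targets, GCLC, SRXN1 and OSGIN1, did not pass, and neither did NFE2L2 or TXNIP. Of all genes tested 12.4% were called lower, 13.4% higher and 25.8% in either direction. NQO1 and SLC7A11 also met the 2-fold threshold of the study, which 4.54% of all genes met in the lower direction. The median log2 fold change over the 7 targets was -0.62, against 0.0025 over all genes tested.

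**Figure D1:**
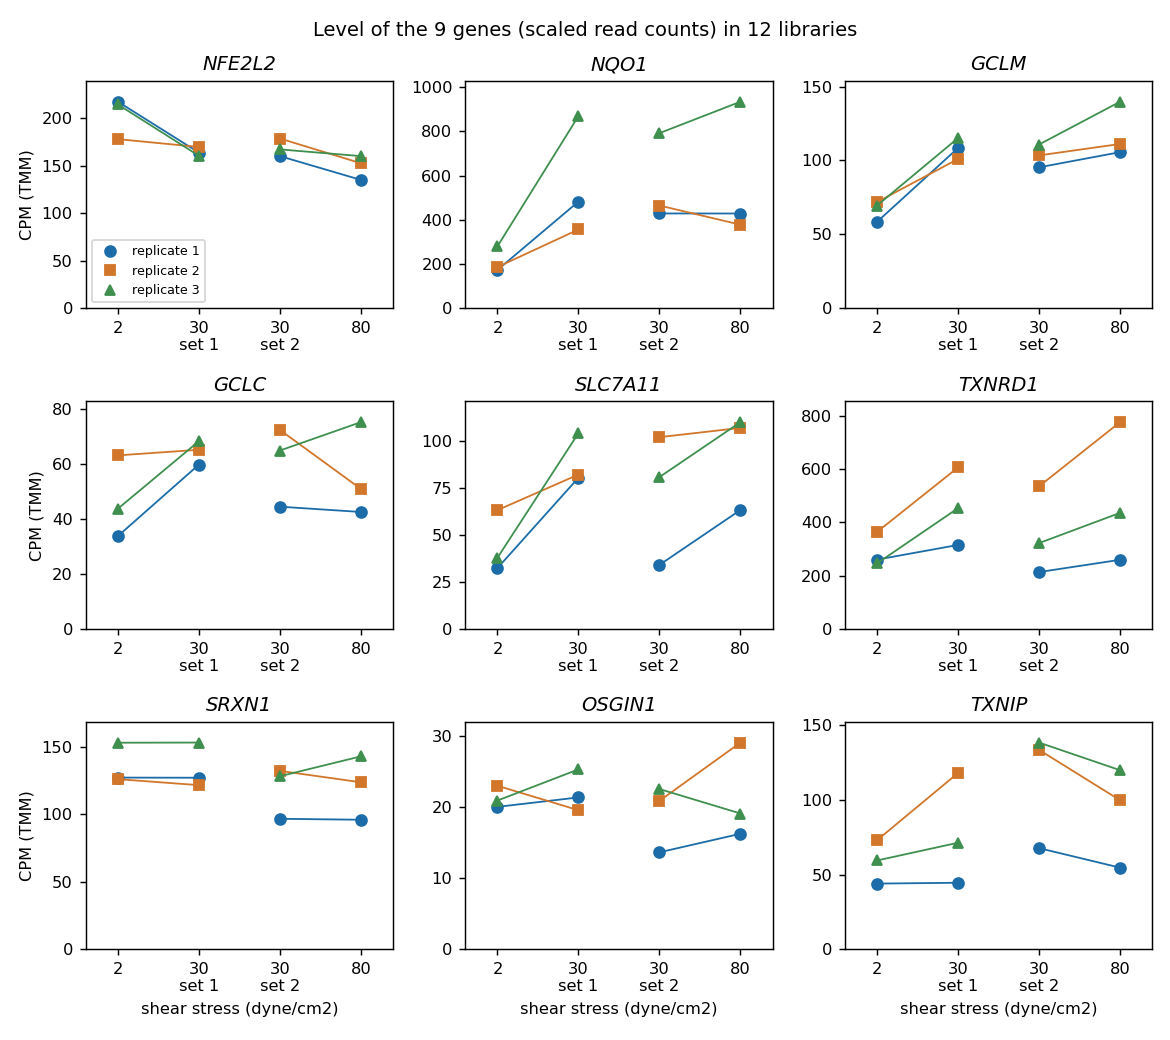
Level of each of the 9 genes (CPM, linear axis from 0) in the 12 libraries, with shear stress on the horizontal axis and a line joining each culture with its control of the same replicate. NQO1, GCLM and SLC7A11 were lower at 2 dyne/cm2 than in set 1 in all 3 replicates, with values that do not overlap, while SRXN1 in these groups ran level.

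NQO1 (ENSSSCG00000002754, chromosome 6, 17292962 to 17302593) reduces quinones with NADPH and is among the most widely used readouts of NRF2. Its level was 174, 187 and 281 CPM in replicates 1, 2 and 3 at 2 dyne/cm2, against 483, 357 and 869 CPM in set 1. The highest culture at low shear stress lay below the lowest control, although replicate 3 was the highest donor in both groups. The log2 fold change was -1.33 (standard error (SE) 0.16, adjusted p = 0.00881), with differences of -1.47, -0.93 and -1.63 within replicates 1, 2 and 3. NQO1 at 80 dyne/cm2 was at 429, 378 and 934 CPM, against 429, 465 and 792 CPM in set 2. These groups overlapped almost fully, with a log2 fold change of -0.02 (SE 0.12, adjusted p = 0.926). Without the donor term the fall at 2 dyne/cm2 was of the same size (-1.40), with a SE of 0.37 and an adjusted p of 0.0623.

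Glutathione is made from glutamate, cysteine and glycine, and its first, rate-limiting step is catalysed by glutamate-cysteine ligase, an enzyme of the catalytic subunit GCLC and the modifier subunit GCLM. GCLM (ENSSSCG00000037549, chromosome 4, 123371198 to 123390130) stood at 58.5, 71.9 and 69.6 CPM at 2 dyne/cm2 and at 108, 101 and 115 CPM in set 1. The donors were close together in each group and the groups were well apart. Its log2 fold change was -0.69 (SE 0.10, adjusted p = 0.0141), and it passed the test in all 11 alternative analyses, those without the donor term, with the other control set and without any 1 donor included. Under supra-high shear stress GCLM was at 106, 111 and 139.7 CPM, higher than the 95.4, 103 and 111 CPM of set 2 in each donor, with a log2 fold change of 0.19 that did not pass (SE 0.09, adjusted p = 0.206).

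The catalytic partner differed between donors. GCLC (ENSSSCG00000001488, chromosome 7, 27209565 to 27253535) was at 33.7, 63.1 and 43.7 CPM at 2 dyne/cm2 and at 59.7, 65.1 and 68.2 CPM in set 1. It was lower by 0.81 and 0.64 on the log2 scale in replicates 1 and 3 and by 0.05 in replicate 2. Over the 3 donors its log2 fold change was -0.49 (SE 0.17, adjusted p = 0.0888). Without replicate 2 it was -0.71 and passed (adjusted p = 0.0324), as it did against set 2 (-0.38, adjusted p = 0.0429). Under supra-high shear stress the donors went different ways, with differences of -0.06, -0.50 and 0.21 and a log2 fold change of -0.12 (SE 0.13, adjusted p = 0.601).

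SLC7A11 (ENSSSCG00000022649, chromosome 8, 88608083 to 88690589) is the cystine carrier of system xc-, which brings in the cysteine that glutathione synthesis needs. It was at 32.3, 63.1 and 37.8 CPM at 2 dyne/cm2, against 80.4, 82.1 and 104 CPM in set 1. All cultures at low shear stress lay below all controls, with the smallest gap in replicate 2. The log2 fold change was -1.04 (SE 0.23, adjusted p = 0.0321), and within replicates 1, 2 and 3 the differences were -1.30, -0.38 and -1.45. The call was lost without replicate 1 (adjusted p = 0.0624), without replicate 3 (0.0997), without the donor term (0.0684) and against set 2 (-0.62, adjusted p = 0.0844). SLC7A11 at 80 dyne/cm2 was at 63.2, 107 and 109.9 CPM, against 34.0, 102 and 80.7 CPM in set 2. It was higher in each donor, most in replicate 1, and did not pass the test (log2 fold change 0.46, SE 0.15, adjusted p = 0.101), except without replicate 2 (0.65, adjusted p = 0.0498).

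TXNRD1 (ENSSSCG00000000843, chromosome 5, 80170334 to 80213889), the cytosolic thioredoxin reductase, uses NADPH to keep thioredoxin reduced. It was at 259.9, 364 and 246 CPM at 2 dyne/cm2, against 315, 606 and 453 CPM in set 1. The groups overlapped, since donors differed more than conditions, but each donor was lower at low shear stress, by 0.28, 0.73 and 0.88 on the log2 scale. The log2 fold change was -0.62 (SE 0.14, adjusted p = 0.0362). TXNRD1 at 80 dyne/cm2 was at 259.3, 776 and 435 CPM and in set 2 at 213, 535 and 322 CPM. It was the only gene of the 9 that rose at 80 dyne/cm2, 1.33-fold (log2 fold change 0.41, SE 0.10, adjusted p = 0.0422), and it did so in each donor. Of all 11187 genes tested there 8.4% were called in either direction and 4.36% were called higher.

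Both calls of TXNRD1 rested on the control set. Set 2 was lower than set 1 in all 3 donors, with a log2 difference of -0.40 (SE 0.09, adjusted p = 0.135) although both sets were cultured at 30 dyne/cm2. Against the other set, the response was -0.22 (log2) to low shear stress, with an adjusted p of 0.416, and 0.0029 to supra-high shear stress, with an adjusted p of 0.995. Both calls were also lost without replicate 2, without replicate 3 and without the donor term.

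SRXN1 and OSGIN1 gave no call in either comparison. SRXN1 (ENSSSCG00000023298, chromosome 17, 34582377 to 34589308), sulfiredoxin, repairs over-oxidised peroxiredoxins. It was at 127, 126 and 153 CPM at 2 dyne/cm2 and at 127, 121 and 153 CPM in set 1, nearly the same value in each donor. Its log2 fold change was 0.03 (SE 0.07, adjusted p = 0.762). Its level at 80 dyne/cm2 was 95.9, 124 and 143 CPM, against 96.6, 132 and 128 CPM in set 2 (log2 fold change 0.01, SE 0.09, adjusted p = 0.939). In replicate 1 both cultures of the comparison at 80 dyne/cm2 were lower than both cultures of the comparison at 2 dyne/cm2.

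OSGIN1 (ENSSSCG00000032115, chromosome 6, 4642762 to 4656113), an oxidative stress-induced growth inhibitor, was the least counted member. It had 20.0, 23.0 and 20.9 CPM at 2 dyne/cm2 and 21.4, 19.6 and 25.3 CPM in set 1. The cultures at 80 dyne/cm2 had 16.3, 29.1 and 19.1 CPM and in set 2 13.6, 20.9 and 22.5 CPM. The donors moved in different directions in both comparisons. Its log2 fold changes were -0.03 (SE 0.13, adjusted p = 0.875) and 0.16 (SE 0.15, adjusted p = 0.522).

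The mRNA of NRF2 itself did not fall with its targets. NFE2L2 (ENSSSCG00000015987, chromosome 15, 82967485 to 83146185) was at 217, 178 and 214 CPM at 2 dyne/cm2, against 164, 169 and 160.2 CPM in set 1. All values at low shear stress lay above all controls, by little in replicate 2. The log2 fold change of 0.31 did not pass (SE 0.11, adjusted p = 0.0886). With the spread estimated over all 12 libraries it passed (0.32, adjusted p = 0.0303), as it did against both control sets together (0.29, adjusted p = 0.0263). These were the only 2 of 11 alternatives in which it passed. Against set 2 alone it was 0.27 (adjusted p = 0.132). NFE2L2 at 80 dyne/cm2 was at 135, 152 and 159.8 CPM, against 159.8, 178 and 167 CPM in set 2. Each donor was lower than its control, with a log2 fold change of -0.18 that did not pass (SE 0.08, adjusted p = 0.219).

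TXNIP (ENSSSCG00000031262, chromosome 4, 99348589 to 99351760) binds reduced thioredoxin and blocks it. It is no classical NRF2 target, and its transcription follows glucose through the factor MondoA. It was at 44.0, 73.1 and 59.5 CPM at 2 dyne/cm2 and at 44.6, 118 and 71.4 CPM in set 1, with equal levels in replicate 1 and the largest gap in replicate 2. Its log2 fold change was -0.31 (SE 0.15, adjusted p = 0.171). TXNIP at 80 dyne/cm2 was at 54.7, 99.8 and 119.97 CPM, below the 67.8, 134 and 138 CPM of set 2 in each donor (-0.32, SE 0.08, adjusted p = 0.0621). DESeq2 called this difference (-0.32, adjusted p = 0.0462), as did edgeR without replicate 1 (adjusted p = 0.0481). Its control sets lay apart too, set 2 being above set 1 by 0.59 on the log2 scale (SE 0.15, adjusted p = 0.145) and in each donor. Against set 2 TXNIP fell at 2 dyne/cm2 (-0.90, adjusted p = 0.0132), and against set 1 its value at 80 dyne/cm2 turned to 0.26 (adjusted p = 0.58).

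**Figure D2:**
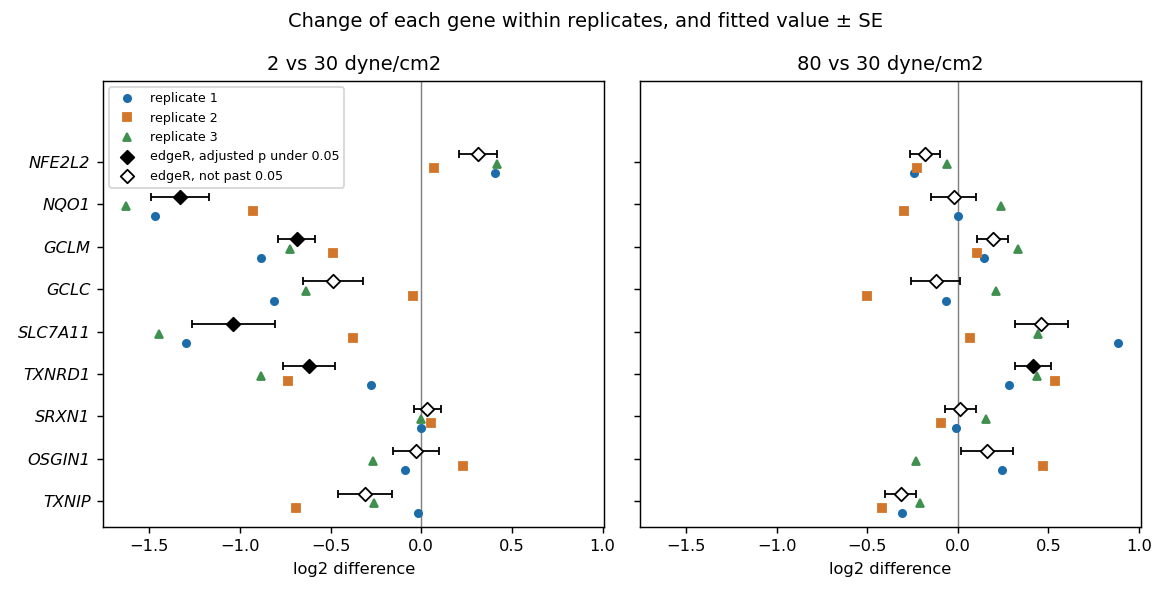
Change of each of the 9 genes at 2 and at 80 vs. 30 dyne/cm2 (log2 difference) within each replicate (coloured points) and as fitted by edgeR with its SE (diamonds, filled where the adjusted p is under 0.05). The filled diamonds at 2 dyne/cm2 are NQO1, GCLM, TXNRD1 and SLC7A11, all below 0, and TXNRD1 is the filled diamond at 80 dyne/cm2. Replicate 2 lies nearest to 0 for NQO1, GCLM, GCLC and SLC7A11 at 2 dyne/cm2.

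Donors differed in the size of the change at 2 dyne/cm2. The median log2 difference over the 7 targets was -0.81 in replicate 1, -0.38 in replicate 2 and -0.72 in replicate 3, and 6, 5 and 7 of the 7 targets were lower. Over all genes tested the median absolute log2 difference was 0.26, 0.23 and 0.36 in the same order. Donors also differed in level at any shear stress. The mean of TXNRD1 over 4 libraries was 570.2 CPM in replicate 2 and 262 CPM in replicate 1, and that of NQO1 was 719 CPM in replicate 3 and 347 CPM in replicate 2. At 2 dyne/cm2 the values of cultures and controls did not overlap for NFE2L2, NQO1, GCLM and SLC7A11, 4 of the 9 genes, as for 37.8% of all genes tested. At 80 dyne/cm2 they overlapped for all 9 genes, and 14.9% of all genes tested did not overlap.

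The responses to low and supra-high shear stress were compared directly in 1 fit over the 12 libraries, which asks whether the change at 80 dyne/cm2 differs from the change at 2 dyne/cm2. They differed for 5 of the 9 genes (adjusted p under 0.05), as for 37.1% of all 11568 genes tested (17.9% higher and 19.3% lower). For SLC7A11, NQO1, TXNRD1 and GCLM the response at 80 dyne/cm2 was the higher. The log2 difference between responses was 1.48 for SLC7A11 (SE 0.35, adjusted p = 0.00938), 1.30 for NQO1 (0.20, adjusted p = 0.00116), 1.01 for TXNRD1 (0.25, adjusted p = 0.0123) and 0.87 for GCLM (0.12, adjusted p = 7.3e-04). For NFE2L2 it was -0.51 (SE 0.14, adjusted p = 0.0185), so that its mRNA went the other way from these targets. All 5 differences had the same sign in the 3 donors. Each of them includes the gap between the control sets. On the log2 scale set 2 minus set 1 was -0.42 for SLC7A11, -0.40 for TXNRD1, -0.06 for GCLM, 0.03 for NQO1 and 0.04 for NFE2L2. GCLC (0.37), OSGIN1 (0.20), SRXN1 (-0.03) and TXNIP (0.0045) did not pass. Without the donor term only GCLM and NFE2L2 passed, and without replicate 3 only GCLM and NQO1. NFE2L2 was also lost without replicate 1 and TXNRD1 without replicate 2, where GCLC passed.

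The 2 control sets, which share their shear stress, were compared to show how far these genes differ between cultures at 30 dyne/cm2. By the deposited description the sets were in different slides, so that slide and set cannot be told apart here. With the pairing used here, a comparison against the other set also changes the slide. In the difference between responses each condition has controls in its own slide. The 2 responses still come from different slides, so that slide and shear stress cannot be told apart there. No member passed in edgeR's quasi-likelihood test (0.0179% of 11163 genes did), and only TXNRD1 and TXNIP were under 0.05 before adjustment. DESeq2 called both (adjusted p = 0.0139 and 0.00941) among 467 genes, against 2 genes with edgeR, which called 144 genes and no member without replicate 2. In replicates 1 and 3 all 7 targets were lower in set 2 than in set 1, whereas 6 of 7 were higher in replicate 2. On the log2 scale the widest gap within a replicate was that of SLC7A11 in replicate 1 (-1.23), at 80.4 CPM in set 1 and 34.0 CPM in set 2. For NQO1 the sets differed by 0.03 on the log2 scale (SE 0.12) and for GCLM by -0.06 (SE 0.07), which is small beside their changes at 2 dyne/cm2. Within replicates 1, 2 and 3 the differences of NQO1 were -0.17, 0.38 and -0.13, of mixed sign. Those of GCLM were -0.18, 0.03 and -0.06.

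**Figure D3:**
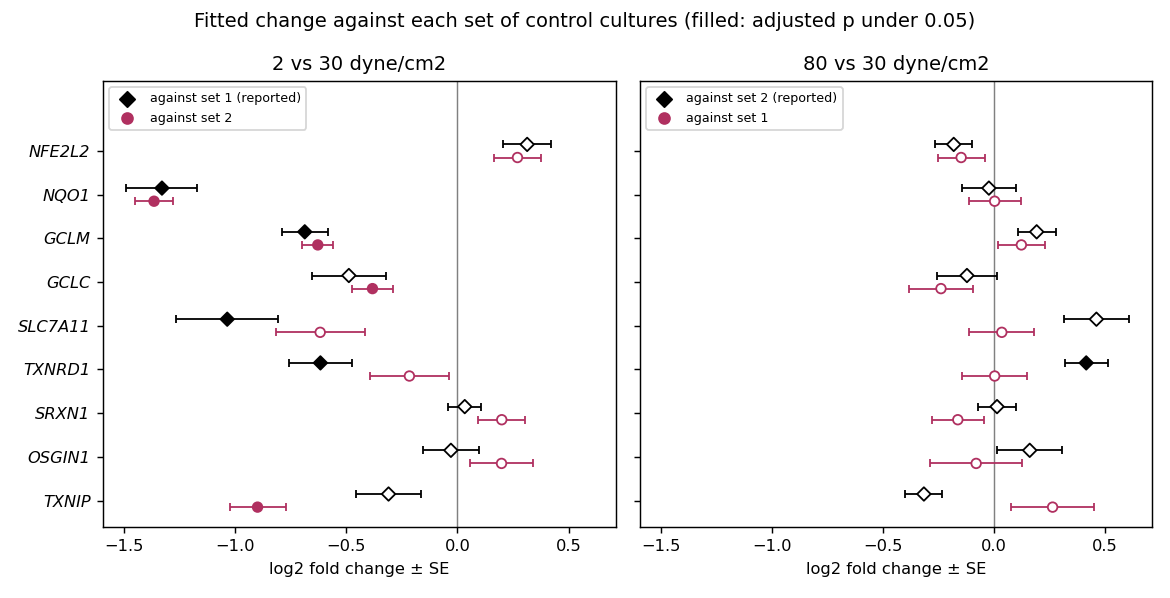
Log2 fold change (± SE) of each of the 9 genes at 2 and at 80 dyne/cm2 against the control set used here (diamonds) and against the other set (circles), filled where the adjusted p is under 0.05. NQO1 and GCLM keep their filled symbols at 2 dyne/cm2 with either set, while those of TXNRD1 and SLC7A11 are open against the other set and TXNIP changes sign at 80 dyne/cm2.

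Other genes of the pathway were read from lists written from general knowledge. At 2 dyne/cm2 the NADPH-supplying enzymes, whose product NQO1, TXNRD1 and glutathione reductase consume, fell in 4 of 7 tested cases and none rose, with a median log2 fold change of -0.49. Over all genes, 12.4% were called lower there and 25.8% in either direction. ME1, cytosolic malic enzyme, fell from 120.1 ± 27.3 to 54.4 ± 12.3 CPM (SD, n = 3; log2 fold change -1.13, SE 0.11, adjusted p = 0.0064). PGD, an NADPH-producing dehydrogenase, fell from 388 ± 96.2 to 248 ± 23.8 CPM (-0.61, adjusted p = 0.0356). PGD rose at 80 dyne/cm2, with a log2 fold change of 0.53 (adjusted p = 0.0195), and the list median was 0.34, with 2 of 7 genes higher and none lower. Over all genes, 4.36% were called higher at 80 dyne/cm2. The difference between responses passed for 6 of the 7 genes, and for 37.1% of all genes. Against set 2 the same 4 genes fell at 2 dyne/cm2, and against set 1 no gene of the list was called at 80 dyne/cm2.

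Among 12 tested regulators and partners of NRF2, 2 rose and 2 fell at 2 dyne/cm2 (33.3% called, near the 25.8% of all genes). BACH1, the repressor at antioxidant response elements, rose from 65.7 ± 15.1 to 95.5 ± 27.0 CPM (log2 fold change 0.54, SE 0.08, adjusted p = 0.0138), and its relative BACH2 rose from 3.86 to 7.34 CPM (0.95, adjusted p = 0.0146). MAFG, a small MAF partner, fell (-0.48, adjusted p = 0.0449). KEAP1, named after its values were seen, was at 109 ± 3.69 CPM and at 112 ± 7.87 CPM in set 1 (-0.02, SE 0.08, adjusted p = 0.871), and its log2 fold change at 80 dyne/cm2 was 0.10 (SE 0.08, adjusted p = 0.481). Under supra-high shear stress only DPP3, which competes with NRF2 for KEAP1, was called (0.52, adjusted p = 0.0157). That is 8.33% of the list, near the 8.4% of all genes. DPP3 had fallen at 2 dyne/cm2 (-0.42). Without the donor term no gene of this list was called in either comparison, and against set 2 only BACH1 was called at 2 dyne/cm2.

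The glutathione list moved both ways at 2 dyne/cm2, with 4 genes higher and 3 lower of 14 tested. GSTO1, an omega-class glutathione transferase, fell from 155 ± 45.1 to 39.6 ± 6.56 CPM (log2 fold change -1.93, SE 0.26, adjusted p = 0.0116), while GPX8, a peroxidase of the endoplasmic reticulum, rose from 22.4 ± 4.04 to 64.7 ± 14.4 CPM (1.54, SE 0.11, adjusted p = 0.00403). GSTO1 and SLC3A2, the heavy chain that carries SLC7A11 to the membrane, rose at 80 dyne/cm2 by 0.41 and 0.45 (adjusted p = 0.0476 and 0.0312), and ABCC3 fell by 0.77 (adjusted p = 0.00698). At 2 dyne/cm2 SLC3A2 had fallen (-0.35, adjusted p = 0.0465) and ABCC3 had risen (0.45, adjusted p = 0.0202). In the thioredoxin and peroxiredoxin list 3 of 17 genes rose and 3 fell at 2 dyne/cm2. PRDX6, a peroxiredoxin, fell (-0.84, adjusted p = 0.0142), and SESN2, a stress-induced sestrin, rose (0.80, adjusted p = 0.0224). PRDX6 was the only gene of this list still called at 2 dyne/cm2 without the donor term. SESN3 rose (0.45) and MSRB2 fell (-1.04) under supra-high shear stress. The called share at 2 dyne/cm2 was 50% in the glutathione list and 35.3% in the thioredoxin and peroxiredoxin list, beside 25.8% of all genes. At 80 dyne/cm2 these shares were 21.4% and 11.8%, beside 8.4% of all genes.

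Among genes of heme and iron handling, SLC40A1, ferroportin, which exports iron, rose at 2 dyne/cm2 from 61.9 ± 6.15 to 277 ± 119 CPM (log2 fold change 2.07, SE 0.25, adjusted p = 0.00878) and fell at 80 dyne/cm2 (-0.80, SE 0.11, adjusted p = 0.00911). The ferritin light chain FTL and the transferrin receptor TFRC fell at 2 dyne/cm2 (-0.39 and -0.55, adjusted p = 0.04 and 0.0468). Neither was called without the donor term, without replicate 1 or without replicate 3, where SLC40A1 was the only called gene of the list. Against set 2 FTL was called and TFRC was not. In all, 1 of 10 genes rose and 2 fell at 2 dyne/cm2 (30% called, beside 25.8% of all genes), and 1 fell at 80 dyne/cm2 (10%, beside 8.4%). Of 16 tested detoxifying enzymes and other targets, 1 rose and 3 fell at 2 dyne/cm2, a called share of 25% that is near the background of 25.8%. EPHX1, microsomal epoxide hydrolase, rose (0.97, adjusted p = 0.0119) and fell at 80 dyne/cm2 (-0.69, adjusted p = 0.013), and TRIM16 and OSGIN2 fell at 2 dyne/cm2 (-0.99 and -0.80). Of 5 enzymes that handle superoxide and peroxides, SOD3, the extracellular superoxide dismutase, and PON2 rose at 2 dyne/cm2 (1.98 and 0.58), SOD1 fell (-0.58), and PON2 fell at 80 dyne/cm2 (-0.40). Their called share was 60% at 2 and 20% at 80 dyne/cm2, beside 25.8% and 8.4% of all genes. PON2 was the only called gene of these 5 at 2 dyne/cm2 without the donor term, and EPHX1 was not called there either.

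**Figure D4:**
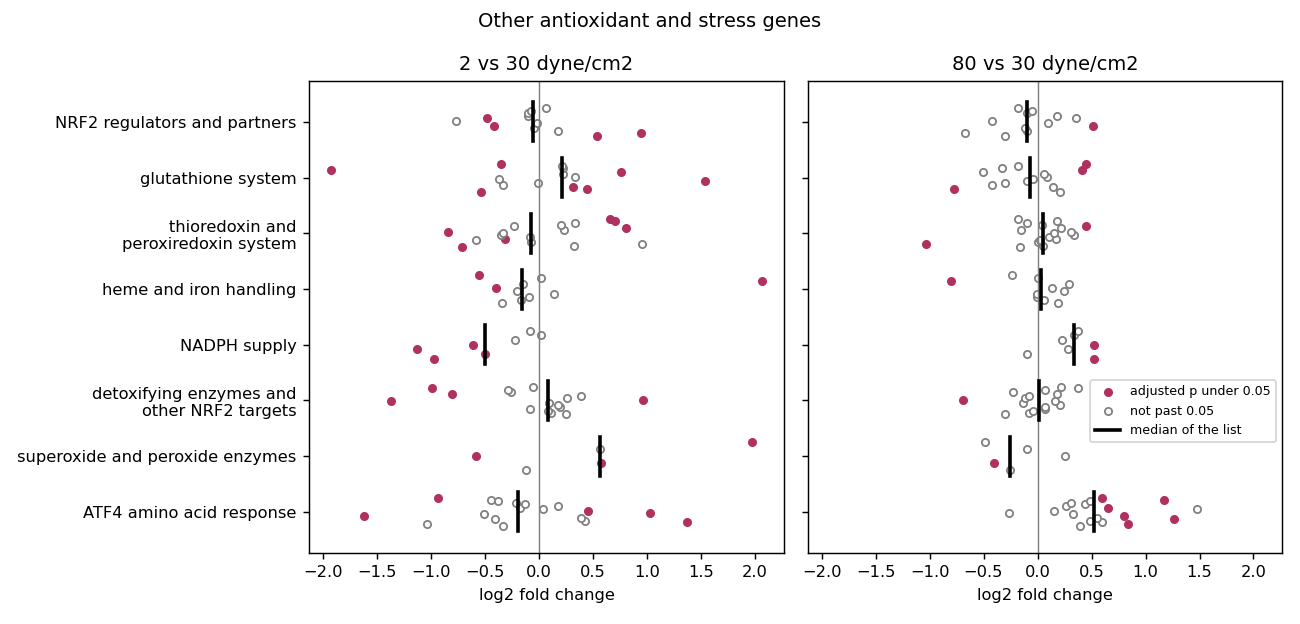
Log2 fold change of each tested gene of 8 lists of antioxidant and stress genes at 2 and at 80 vs. 30 dyne/cm2, filled where the adjusted p is under 0.05, with the median of each list as a black bar. The called NADPH genes are all below 0 at 2 dyne/cm2 (median -0.49) and the called ATF4 genes all above 0 at 80 dyne/cm2 (median 0.52).

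SLC7A11 is also a target of ATF4, the factor of the amino acid response, and NQO1 of the aryl hydrocarbon receptor. Of 18 tested genes of the ATF4 list, 6 rose and none fell at 80 dyne/cm2, with a median of 0.52. The called share was 33.3%, beside 8.4% of all genes. CHAC1, which degrades glutathione, rose by 1.26 on the log2 scale (SE 0.18, adjusted p = 0.00911), TRIB3, a pseudokinase induced by stress, from 9.73 ± 5.84 to 20.9 ± 8.35 CPM (1.17, adjusted p = 0.00678), and the factor ATF3 from 26.3 ± 12.7 to 46.3 ± 18.1 CPM (0.84, adjusted p = 0.00466). In this comparison no gene at all was called without the donor term, flow markers included. Against set 1 no gene of the lists was called, and the flow markers were not checked there. At 2 dyne/cm2, 3 genes of the ATF4 list rose and 2 fell (27.8% called, near the 25.8% of all genes). Among them were CBS (1.38), NUPR1 (1.03) and DDIT4 (-1.62). Of 6 tested genes of the aryl hydrocarbon receptor system, AHRR (0.56) and TIPARP (0.34) rose and CYP1B1 (-2.45) fell at 2 dyne/cm2, and AHR (-0.51) and AHRR (-0.54) fell at 80 dyne/cm2. The called share was 50% at 2 and 33.3% at 80 dyne/cm2, beside 25.8% and 8.4% of all genes. Against set 2 neither rise at 2 dyne/cm2 was called, while CYP1B1 and CYP1A1 were called lower, and without the donor term no gene of the list was called. Among 5 genes around MondoA, which drives TXNIP, MLXIP (MondoA itself) rose at 2 dyne/cm2 (1.15) and fell at 80 dyne/cm2 (-0.41), and KLF10 (-1.31), ARRDC3 (-1.19) and ARRDC4 (-0.71), the last a relative of TXNIP, fell at 2 dyne/cm2. Of this list 80% was called at 2 and 20% at 80 dyne/cm2, beside 25.8% and 8.4% of all genes. KLF2, the flow-induced factor known to strengthen the NRF2 response, fell from 144 ± 31.8 to 7.76 ± 4.64 CPM at 2 dyne/cm2 and rose from 152 ± 36.7 to 203 ± 20.4 CPM at 80 dyne/cm2. All 3 tested flow markers fell at 2 dyne/cm2, where 12.4% of all genes were called lower. At 80 dyne/cm2 2 of them rose, where 4.36% of all genes were called higher. The part of the flow markers in the changes of the NRF2 targets was not tested.

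The genes whose pattern was most like each member were taken by Pearson's r of log2 CPM over the 12 libraries, after the mean of each donor was removed, among 11568 genes. These libraries share 3 donors and 4 conditions, so r is a description. The closest were ORMDL2 to NQO1 (r = 0.992), TBL1XR1 to GCLM (0.996), RICTOR to SLC7A11 (0.975), DESI1 to TXNRD1 (0.963), CDC27 to GCLC (0.934), IK to NFE2L2 (0.981), PIKFYVE to TXNIP (0.959), SAMD11 to OSGIN1 (0.924) and NF1 to SRXN1 (0.909). None of these genes is among the members or lists.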

How the data were processed

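RNA of 12 EC cultures was sequenced. Per the labels and methods, the authors aligned with STAR to the pig assembly Sscrofa11.1, kept uniquely placed reads, and deposited raw counts over each gene's merged exons (featureCounts), with no normalization. Gene identifiers were paired with symbols for 14572 of 21153 genes (68.9%), and positions are RefSeq's for the same assembly. Exon lengths were not used, so levels are not compared between genes.

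The tests used edgeR 4.0.16 under R 4.3.3 (TMM, quasi-likelihood test, Benjamini-Hochberg adjustment) on genes that reached 1 CPM in 3 or more of the libraries compared (6, or 12 for the difference between responses). A gene was called at an adjusted p under 0.05; the study's further 2-fold threshold is given beside it. The donor (replicate number) was a term, since the methods compare conditions within a donor. The labels give all libraries of a number the same isolate, and in 18 pairs of same-numbered libraries the deviations from the group means correlated at 0.63 to 0.87. Standard errors are the log2 fold change divided by the square root of F. Differences within replicates are of log2(CPM + 0.5). Named list genes were at most 3 per list and comparison, the largest called changes with 1 direction in all donors and at least 50 counts on average; for likeness, at most 2 genes per member were drawn, of which the first is given. One list gene that this rule takes is not reported here. Members and lists were chosen with earlier results of these data known. The steps were tested on simulated data with changes of 2-fold or more, which does not show how well smaller changes are found. Alternatives were RLE scaling, 2 other filters, DESeq2 1.42.0, no donor term, 12-library dispersion, other controls and leaving out each donor.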

Additional observations from a re-analysis of the deposited data

Results flagged for a closer look

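For 5 genes the response at 80 dyne/cm2 differed from that at 2 dyne/cm2 in the test of the difference itself (edgeR, all 12 libraries, donor as a term, adjusted p under 0.05). The log2 differences between responses were 1.48 for SLC7A11, 1.30 for NQO1, 1.01 for TXNRD1, 0.87 for GCLM and -0.51 for NFE2L2, each with the same sign in 3 of 3 donors. GCLM passed in all 6 alternatives, NQO1 in 5, SLC7A11 and NFE2L2 in 4 and TXNRD1 in 3. None of these alternatives exchanged the control sets, although the gap between the sets is part of each difference.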

How the results depend on the processing

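With 3 donors, most calls at 80 dyne/cm2 depended on the donor term and on the control set. Of the alternative values for the 9 genes, 248 kept direction and call, 24 lost the call, 14 gained it and 20 changed sign. Values that were uncalled in the reported test and stayed uncalled count among the 248. Of 11 alternatives each, the calls at 2 dyne/cm2 passed in 11 for GCLM, 10 for NQO1, 7 for SLC7A11 and 6 for TXNRD1. The call of TXNRD1 at 80 dyne/cm2 passed in 5 of 11. The causes were not tested. At 2 dyne/cm2, where 4 genes were called, 1 (GCLM) was called without the donor term (replicate block), 2 with the 2-fold threshold and 2 to 4 without 1 donor. At 80 dyne/cm2, where 1 gene was called, 2 were called with no filter and 2 by DESeq2. There 0 were called by edgeR without the replicate block, with dispersion from 12 libraries, against the other set, against both sets and with the 2-fold threshold, where 0, 1, 0 and 1 of them had an unadjusted p under 0.05 in the first 4 cases. Leaving out 1 donor gave 0 to 2, with 0 without replicate 3. The 5 differing responses became 2 without the replicate block and 2 to 5 without 1 donor. Between the control sets DESeq2 called 2 genes.

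Over all genes, the 2895 calls at 2 dyne/cm2 became 1244 without the replicate block, 4586 with dispersion from 12 libraries, 1078 with the 2-fold threshold and 1389 to 1799 without 1 donor. The 940 calls at 80 dyne/cm2 became 0 without the replicate block (929 genes with unadjusted p under 0.05), 380 with dispersion from 12 libraries, 26 against the other set, 328 against both sets, 246 with the 2-fold threshold, 183 without replicate 3 and 2042 without replicate 1.

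The log2 values that changed sign were all uncalled. At 2 dyne/cm2 OSGIN1 was 0.20 against the other set, 0.074 against both and -0.16 to 0.084 without 1 donor. At 80 dyne/cm2 NQO1 was 0.040 without the replicate block, 0.0027 against the other set and -0.15 to 0.11 without 1 donor. SRXN1 was -0.0013 with dispersion from 12 libraries, -0.16 against the other set, -0.076 against both and -0.054 to 0.060 without 1 donor. GCLC was -0.29 to 0.063 without 1 donor. OSGIN1 was -0.081 against the other set and -0.011 to 0.37 without 1 donor, and TXNIP 0.26 against the other set. Between the control sets NQO1 was -0.0090 without the replicate block and -0.14 to 0.13 without 1 donor, and GCLC -0.24 to 0.047. For the difference between responses SRXN1 was -0.091 to 0.048 and TXNIP -0.15 to 0.18 without 1 donor. Alternatives for the gene lists were chosen after seeing the data.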
